A study of Mus musculus with 6 samples.

Results

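Brain endothelial cells were followed through 9 of their genes, chosen by symbol: Cldn5, Cdh5 and Pecam1 of the cell junctions, the receptors Flt1 and Tek, the transporters Slc2a1, Slco1a4 and Abcb1a, and the surface protein Ly6c1. Each symbol matched 1 of the 23282 entries in the count tables, and all 9 were among the 15239 genes with enough counts to test. Forebrain RNA came from C57BL/6J male mice of 8 to 10 weeks. Water avoidance stress (WAS) is an acute psychological stressor in which a mouse stands on a small platform with water all around it. In the WAS group this lasted 1 h (n = 3 mice), and the control group spent 1 h on the same platform in a container without water (n = 3 mice). No transgene, drug or genetic change was part of either group, and the mice were killed at the end of the hour. The olfactory bulbs and cerebellum had been removed. Each library is 1 mouse and counts the 3′ ends of polyadenylated transcripts (QuantSeq).

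Endothelial cells line the blood vessels. In the brain they are joined by tight junctions and carry few vesicles, so that nutrients enter through transporters and many foreign molecules are pumped back into the blood; together these properties make the blood-brain barrier. Growth factors of the VEGF and angiopoietin families act on endothelial receptors and set how vessels grow, rest and leak.

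Groups were taken from the sample labels. The headings of the count columns read WC in the libraries labelled WAS and WS in the libraries labelled control, and their meaning was not given, so directions are written for libraries by label. If the labels were exchanged, each direction given here would be the opposite. The library totals lay between 9248520 and 10502029 counts, and levels are given as CPM, the library's counts of a gene scaled to its total. Reads of QuantSeq cover transcript ends, so CPM values are compared between libraries of 1 gene and not between genes.

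None of the 9 genes differed between the groups beyond the spread between mice. For each of them the CPM values of the 3 WAS libraries overlapped those of the 3 control libraries, where 12.2% of all genes tested had groups that did not overlap. By the quasi-likelihood test of edgeR, 0 of 9 had an unadjusted p under 0.05 (7.24% of all genes tested), and 0 of 9 also met the study's fold change of 1.5 (2.49% of all genes). No gene of the 15239, thus 0% and no member, had an adjusted p under 0.05, the lowest being 0.477 over all genes and 0.777, for Flt1, over the 9. The count under an unadjusted p of 0.05 by DESeq2 and by limma was also 0 of 9. Of the 9 log2 fold changes, 5 were above 0 and 4 below, where 50.2% of all genes were above 0, and their median was 0.027, beside 0.00088 over all genes. The p-values rest on the spread between 3 mice a group, and in whole tissue fewer endothelial cells and less RNA per cell cannot be told apart.

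**Figure D1:**
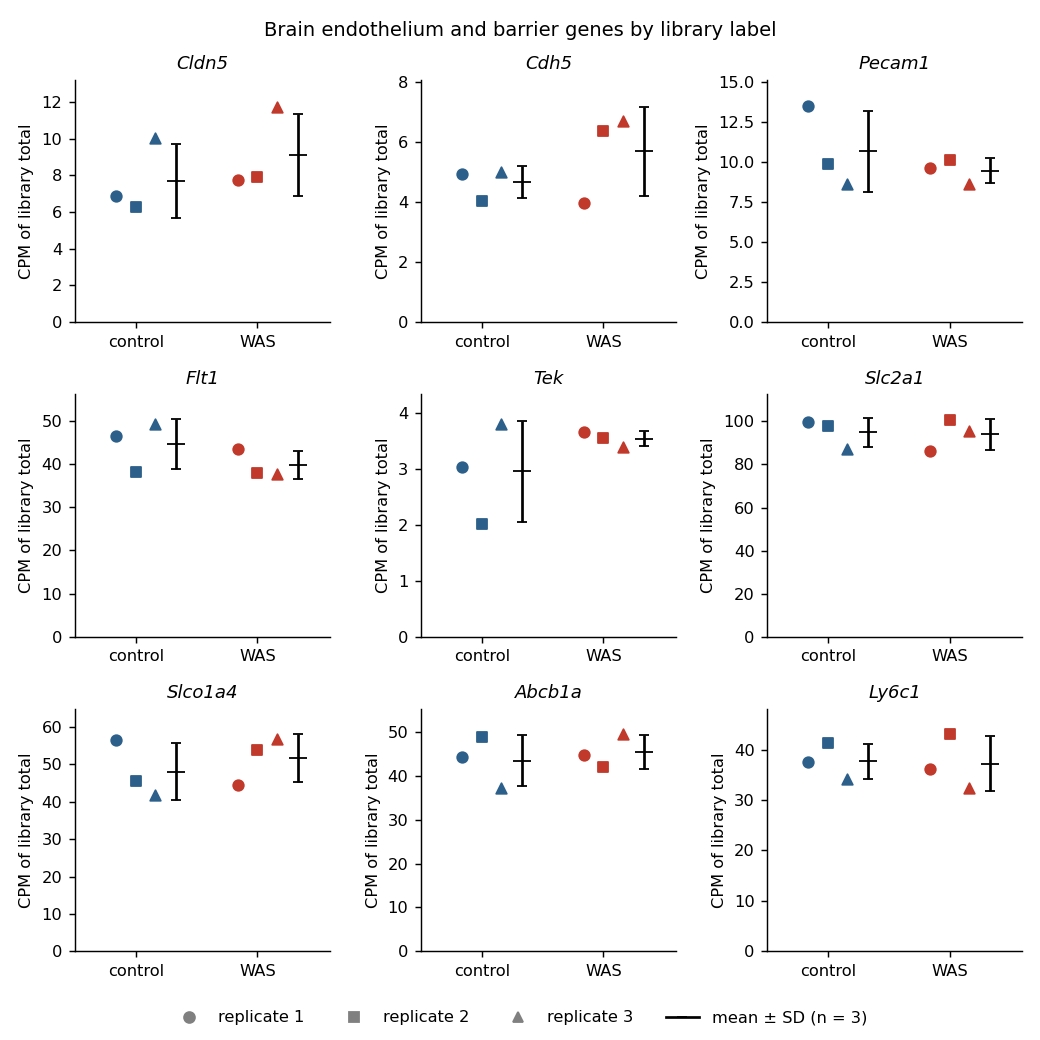
Level of each of the 9 genes in CPM of the library total (y axes, from 0) in the libraries labelled control and WAS, with 1 point per mouse and the mean ± SD (n = 3) in black. In every panel the points of the 2 groups overlap, and the SD is widest relative to the mean for Cldn5, Cdh5 and Tek.

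Promoter sequences are shown for 1 junction gene, 1 receptor and 1 transporter, since these 3 genes stand for the 3 roles described below. RefSeq promoters, from 250 bases before to 50 after the listed start on GRCm38.p6 (mm10), were found for 7 of the 9 genes, all but Pecam1 and Cdh5. The capitals mark the letters AGGAAG on either strand, which hold the core bound by the ETS transcription factors of endothelium. They also mark ACANNNTGT, the inner letters of the glucocorticoid receptor motif on both sides of its spacer. The windows lie at chr16:18776597-18776896 on the plus strand (Cldn5), at chr5:147725962-147726261 on the minus strand (Flt1) and at chr5:8566841-8567140 on the plus strand (Abcb1a).
Cldn5: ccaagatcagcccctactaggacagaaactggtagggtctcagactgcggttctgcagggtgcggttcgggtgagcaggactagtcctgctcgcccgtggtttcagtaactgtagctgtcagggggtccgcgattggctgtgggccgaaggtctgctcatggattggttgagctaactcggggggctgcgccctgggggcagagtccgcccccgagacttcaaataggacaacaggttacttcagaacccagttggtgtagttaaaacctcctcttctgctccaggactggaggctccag
Flt1: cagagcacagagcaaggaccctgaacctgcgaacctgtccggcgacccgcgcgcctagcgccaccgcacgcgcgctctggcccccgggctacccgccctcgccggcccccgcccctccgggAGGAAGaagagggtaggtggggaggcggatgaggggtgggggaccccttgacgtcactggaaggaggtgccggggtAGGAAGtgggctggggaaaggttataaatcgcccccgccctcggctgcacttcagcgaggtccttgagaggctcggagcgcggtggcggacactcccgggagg
Abcb1a: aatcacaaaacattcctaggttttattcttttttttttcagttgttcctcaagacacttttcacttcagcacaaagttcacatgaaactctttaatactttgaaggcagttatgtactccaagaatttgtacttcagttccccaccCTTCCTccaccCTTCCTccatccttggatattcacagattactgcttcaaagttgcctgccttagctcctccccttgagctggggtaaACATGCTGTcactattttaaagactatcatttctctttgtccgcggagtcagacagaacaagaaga

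AGGAAG stood in 35.35% of the 32851 mouse promoter windows and ACANNNTGT in 6.846%. The Flt1 window held AGGAAG 2 times and the Abcb1a window 2 times, all of the latter on the opposite strand, while the Cldn5 window held neither motif. Among the genes not printed, Slco1a4 had 1 AGGAAG, 1 of the 2 starts listed for Ly6c1 had 3, with 2 of them overlapping, and Slc2a1 and Tek had 0. ACANNNTGT was found 1 time, in Abcb1a. The Abcb1a window ends at base 8567140 of chr5, while the GENCODE M21 annotation starts this gene further downstream, at base 8660077. The GC content ran from 40.33% in Abcb1a to 70.67% in Flt1, beside a median of 52.67% over all windows. These letters describe the windows only, and binding was not measured.

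Cldn5, Cdh5 and Pecam1 hold neighbouring endothelial cells together. Cldn5 is the main claudin of the tight junctions of brain vessels. Its gene has 1 exon, at chr16:18776847-18778262 on the plus strand (mm10, GENCODE M21). The WAS libraries, replicates 1 to 3, had 7.75, 7.89 and 11.7 CPM of Cldn5, and the control libraries had 6.86, 6.26 and 10.02 CPM. In both groups replicate 3 was the highest library, and 1 WAS library stood above the highest control. The means were 9.12 ± 2.25 CPM in WAS and 7.71 ± 2.02 CPM in control (SD, n = 3), and the log2 fold change was 0.21 ± 0.25 (SE), with an adjusted p of 0.928 by edgeR. Without WAS replicate 3 it was -0.019, so 1 library set its direction. It was 0.31 without WAS replicate 1, 0.12 without control replicate 1, 0.076 without control replicate 2 and 0.45 without control replicate 3. Its 95% interval ran from 0.788-fold to 1.69-fold, which leaves changes past 1.5-fold within what these libraries cannot separate from 0.

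Cdh5 encodes VE-cadherin, the cadherin of endothelial adherens junctions (chr8:104101625-104144511, plus strand, 12 exons). It was counted at 40, 59 and 67 reads in the WAS libraries and 52, 42 and 50 reads in the control libraries. That was 3.97, 6.38 and 6.71 CPM in WAS and 4.95, 4.05 and 5.01 CPM in control. WAS replicate 1 was the lowest of all 6 libraries and the other WAS libraries were the highest. For Cdh5 the log2 fold change was 0.25 ± 0.27 (SE, adjusted p of 0.913 by edgeR), and it was 0.45 without WAS replicate 1, 0.16 without WAS replicate 2, 0.11 without WAS replicate 3 and 0.15 without control replicate 2.

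Pecam1 encodes CD31, an adhesion protein of endothelial cells, platelets and leukocytes (chr11:106654217-106750628, minus strand, 16 exons). Its levels were 9.64, 10.2 and 8.61 CPM in WAS and 13.5, 9.92 and 8.62 CPM in control. Control replicate 1 stood above the other 5 libraries, which lay within 8.61 to 10.2 CPM. The log2 fold change of -0.21 ± 0.20 (SE, adjusted p of 0.894 by edgeR) became -0.016 without control replicate 1 and -0.34 without control replicate 3. The interval of the fold, 0.636 to 1.17, reaches past a drop of 1.5-fold.

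Flt1 and Tek are receptor tyrosine kinases. Flt1, VEGF receptor 1, binds VEGF-A, VEGF-B and placental growth factor and limits signalling through VEGF receptor 2 by holding VEGF-A (chr5:147561604-147726011, minus strand, 30 exons). The WAS libraries had 43.5, 38.0 and 37.8 CPM of Flt1, and the control libraries had 46.5, 38.2 and 49.2 CPM. Control replicate 2 lay with the lower WAS libraries, and the other control libraries were the highest of the 6. Mean levels were 39.7 ± 3.26 CPM in WAS and 44.6 ± 5.71 CPM in control (SD, n = 3). The log2 fold change of -0.20 ± 0.12 (SE) had the smallest p of the 9 genes, 0.117 before and 0.777 after adjustment in edgeR's test across all genes, and its interval ran from 0.723-fold to 1.04-fold.

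Flt1 was also the member whose p was moved across 0.05 by 1 library. Without control replicate 2 the log2 fold change was -0.30 with an unadjusted p of 0.0340 and an adjusted p of 1.00 by edgeR; over all 15 alternatives the adjusted p lay between 0.657 and 1.00. Leaving out control replicate 3 gave -0.12. The Flt1 value was below 0 in 15 of 15 alternatives, and the unadjusted p was under 0.05 in 2 of them. Control replicate 2 and WAS replicate 1 were the libraries with the least choroid plexus RNA, described below. With both left out the log2 fold change was -0.38 (unadjusted p of 0.0122 and adjusted p of 0.975 by edgeR).

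Tek encodes TIE2, the receptor of the angiopoietins (chr4:94739289-94874976, plus strand, 23 exons). It had 37, 33 and 34 reads in WAS and 32, 21 and 38 reads in control. These were 3.68, 3.57 and 3.41 CPM in WAS and 3.05, 2.02 and 3.81 CPM in control. The 3 WAS libraries were close together inside the range of the control libraries, in which replicate 2 was low and replicate 3 was the highest of all. Between groups the log2 fold change was 0.23 ± 0.32 (SE, adjusted p of 0.941 by edgeR), and 0.015 without control replicate 2 and 0.46 without control replicate 3. Its interval ran from 0.724-fold to 1.89-fold.

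Slc2a1, Slco1a4 and Abcb1a move molecules across the endothelial membrane. Slc2a1 encodes GLUT1, the glucose transporter of the barrier, which astrocytes also make (chr4:119108711-119137983, plus strand, 10 exons). The WAS libraries had 86.3, 100.4 and 95.4 CPM and the control libraries had 99.7, 97.7 and 87.2 CPM. Each group had 1 library near 87 CPM and the rest above 95 CPM. The means, 94.0 ± 7.15 CPM in WAS and 94.9 ± 6.71 CPM in control (SD, n = 3), differed by less than either SD. Slc2a1 had the narrowest interval of the 9 genes, 0.839-fold to 1.11-fold, around a log2 fold change of -0.049 ± 0.093 (SE, adjusted p of 0.958 by edgeR). An antisense transcript, Gm12868, overlaps its 3′ end, and whether strand was used in the counting was not given.

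Slco1a4 encodes OATP1A4, a carrier of organic anions, bile acids and steroid conjugates (chr6:141805440-141856199, minus strand, 17 exons). Its levels were 44.4, 53.8 and 56.7 CPM in WAS and 56.7, 45.7 and 41.9 CPM in control. The highest library of each group reached 56.7 CPM, and the lowest stood at 44.4 CPM in WAS and 41.9 CPM in control. Between groups the log2 fold change was 0.067 ± 0.13 (SE, adjusted p of 0.959 by edgeR), with an interval of 0.859-fold to 1.28-fold.

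Abcb1a encodes P-glycoprotein, the pump that returns many drugs to the blood and also carries glucocorticoids (chr5:8660077-8748575, plus strand, 28 exons in GENCODE M21, which starts the gene downstream of the RefSeq start used for the promoter). It was at 44.7, 42.0 and 49.6 CPM in WAS and 44.3, 48.8 and 37.3 CPM in control. The control libraries held the lowest value and the WAS libraries the highest, with the other 4 between them. For Abcb1a the log2 fold change was 0.027 ± 0.12 (SE, adjusted p of 0.977 by edgeR), and the interval ran from 0.850-fold to 1.22-fold.

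Ly6c1 encodes a small surface protein anchored in the membrane by a lipid and is a common label of mouse brain endothelium (chr15:75044018-75048830, minus strand, 4 exons). Its levels were 36.2, 43.1 and 32.4 CPM in WAS and 37.5, 41.2 and 34.3 CPM in control. In both groups replicate 2 was the highest and replicate 3 the lowest library. For Ly6c1 the log2 fold change was -0.055 ± 0.13 (SE, adjusted p of 0.967 by edgeR), with an interval of 0.792-fold to 1.17-fold. The last 500 bases of its transcript share 90 stretches of 50 bases with its neighbour Ly6c2, a gene of monocytes, and reads aligning to several places were counted. The Ly6c1 value is therefore uncertain as to which copy gave the reads. The last 500 bases of the other members shared no such stretch with another gene.

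Close relatives of these genes were thinly covered. Ly6c2 had 15, 25 and 21 reads in WAS and 9, 16 and 17 reads in control, and its log2 fold change was 0.57 ± 0.44 (SE). Abcb1b, the second mouse gene for P-glycoprotein, had 34, 29 and 42 reads in WAS and 38, 39 and 23 reads in control, some of which may belong to Abcb1a or Abcb4, which share 14 of its 50-base stretches. Its log2 fold change was 0.11 ± 0.30 (SE). Slco1a1, with 4, 0 and 7 reads in WAS and 2, 13 and 3 reads in control, and Slco1a5, with 7, 6 and 12 against 5, 10 and 11, were too thinly covered for a direction. Slco1a6 had at most 2 reads in any library and was not tested. Of the 4 relatives tested, 0 had an unadjusted p under 0.05 by edgeR, beside 7.24% of all genes tested.

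**Figure D2:**
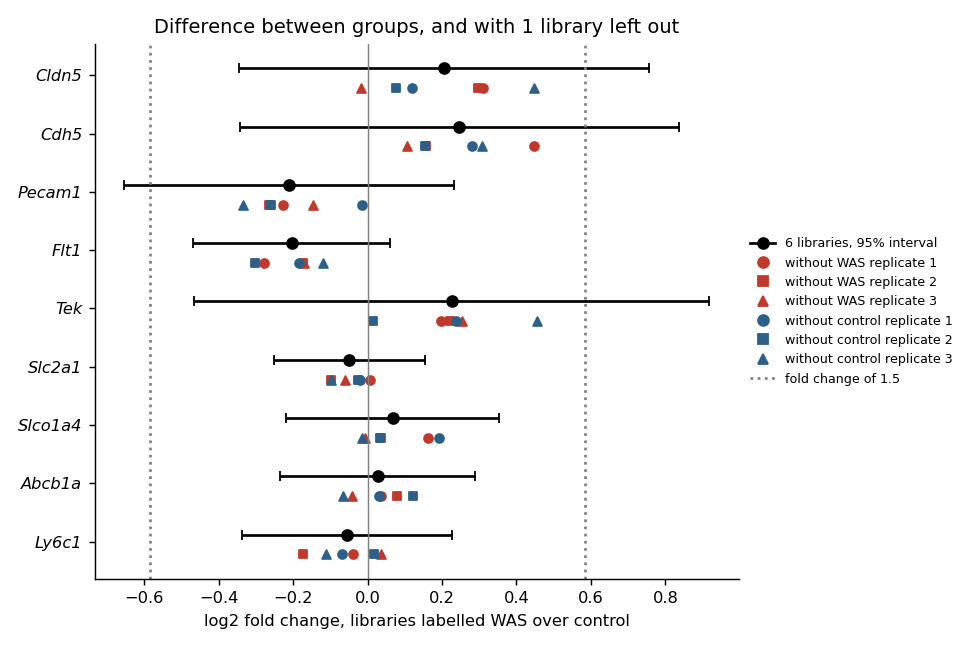
Log2 fold change of WAS over control (x axis) for the 9 genes, with the estimate from 6 libraries and its 95% interval in black and the estimate with each library left out in colour. All 9 intervals include 0, and those of Flt1, Slc2a1, Slco1a4, Abcb1a and Ly6c1 lie inside the dotted lines at a fold change of 1.5.

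The size of change that could have been seen differed between the genes. For Flt1, Slc2a1, Slco1a4, Abcb1a and Ly6c1 the 95% interval stayed within 1.5-fold in both directions. For Cldn5, Cdh5 and Tek its upper bound, and for Pecam1 its lower bound, lay past 1.5-fold. Spread between mice of a group, as a coefficient of variation, was 7.35% for Slc2a1 and 25.4% for Cldn5, the ends of the range over the 9 genes. Counting alone gives 3.25% and 10.9% for these genes. Tek, with the fewest reads, had a spread of 19.7% beside 17.6% from counting, so its libraries differed little more than its counts allow, while Slco1a4, at 14.2% beside 4.48%, differed by more than counting gives. These counting errors are lower limits, since reads of 1 molecule cannot be told from reads of several.

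**Figure D3:**
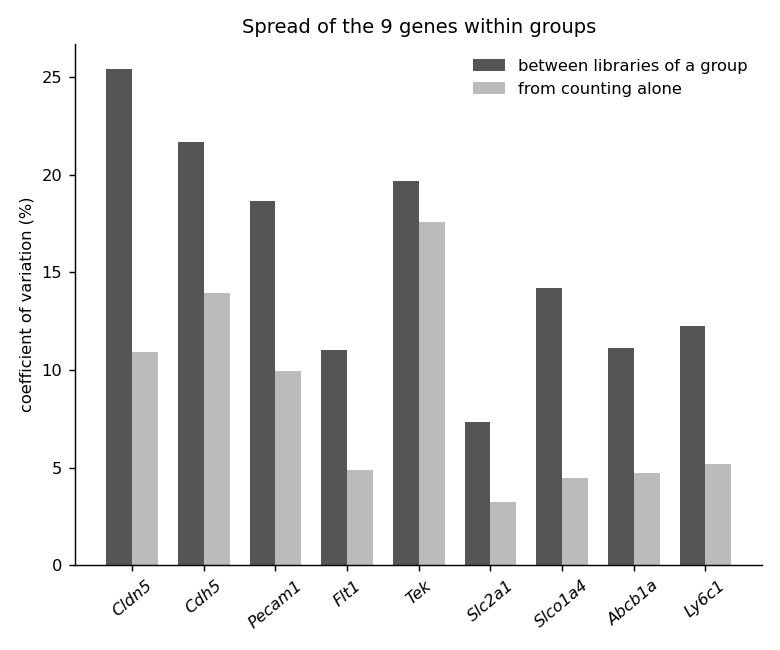
Coefficient of variation in % (y axis, from 0) of each gene between libraries of a group, dark bars, and as counting alone would give, light bars. The spread between libraries was larger than the counting error for all 9 genes, with the smallest difference for Tek.

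The 9 genes did not rise and fall together across the mice. Over the 36 pairs of genes, Pearson's r between log2(CPM + 1) values over the 6 libraries ran from -0.78 to 0.76 with a median of 0.012, and 20 were above 0. These are descriptions of 6 shared libraries. WAS replicate 3 was the highest library for 4 genes, Cldn5, Cdh5, Slco1a4 and Abcb1a, and the lowest for 3, Pecam1, Flt1 and Ly6c1. In WAS replicate 2, 7 of the 9 genes lay above their median over the 6 libraries, against 3 of 9 in WAS replicate 1 and 4 or 5 of 9 in the rest. The genes whose levels followed the mean of the 9 members most closely over 6 libraries, among 11160 with a mean of at least 50 counts, were Alg14 (r = 0.981, rho = 0.829), Arhgap18 (r = 0.970, rho = 0.943), Bola3 (r = 0.968, rho = 0.886), Pard6g (r = 0.967, rho = 0.943) and Prdm16 (r = 0.964, rho = 0.886). They are the top of a ranking of 11160 values of r over only 6 libraries, and whether they exceed chance was not tested.

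The sum of the 9 genes varied little between libraries. It was 280, 305 and 302 CPM in the WAS libraries and 313, 294 and 277 CPM in the control libraries. The means were 296 ± 13.7 CPM in WAS and 295 ± 17.9 CPM in control (SD, n = 3), and the highest library was 1.13-fold above the lowest. Slc2a1 made up 30.8 to 33.2% of this sum in the 6 libraries and Flt1 12.4 to 17.7%. Its size therefore rests mostly on the more heavily counted transporters and Flt1, and Cdh5 and Tek hardly enter it, at up to 2.22% and 1.37%.

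Markers of other cells in the vessel wall and around it varied by different amounts between libraries. The summed level of 12 markers of choroid plexus epithelium, the secretory tissue of the ventricles, was 64.3, 1230.1 and 956 CPM in WAS and 1274, 19.6 and 972 CPM in control. WAS replicate 1 and control replicate 2 thus held little of it, and the highest library was 65.1-fold above the lowest. Its main transcript, Ttr, ranged from 10.98 to 1200 CPM. Choroid plexus also has vessels, and its part in the member values was not tested. In WAS replicate 1 and control replicate 2 the sum of the 9 members was 280 and 294 CPM, beside 277 to 313 CPM in the other 4 libraries. The mean of the 9 members' centred log2 values, in which each gene weighs the same, was lowest in these libraries, at -0.058 and -0.11, beside -0.027 to 0.078 in the other 4. Cdh5 was also lowest in them, at 3.97 and 4.05 CPM against 4.95 to 6.71 CPM. Ependymal markers, summed over 7 genes, were lowest in the same libraries, at 16.6 and 14.3 CPM against 29.4 to 35.0 CPM in the rest.

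Markers of red blood cells, which fill the vessels, summed to 1308 to 2208 CPM in WAS and 1192 to 1567 CPM in control. Leukocyte markers were near 0, at 0.993 to 2.16 CPM in WAS and 1.62 to 3.76 CPM in control for 9 genes, with Cd8a at 0 in all 6 libraries. Pericyte markers summed to 97.8 to 114 CPM in WAS and 95.6 to 103 CPM in control. Vascular smooth muscle markers summed to 103 to 115 CPM in WAS and 92.2 to 115 CPM in control. Fibroblast markers lay at 150 to 211 CPM in WAS and 95.7 to 158 CPM in control. All of these sums overlapped between the groups, as did those of microglia (324 to 394 CPM in WAS, 346 to 391 CPM in control) and oligodendrocytes (5352 to 7370 CPM and 5596 to 6592 CPM). Astrocyte markers were at 4342 to 4458 CPM in WAS and 4319 to 4331 CPM in control, and neuron markers at 5182 to 5862 CPM and 6001 to 6562 CPM. The last 2 sums did not overlap between the groups. Their part in the values of the 9 genes was not tested.

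**Figure D4:**
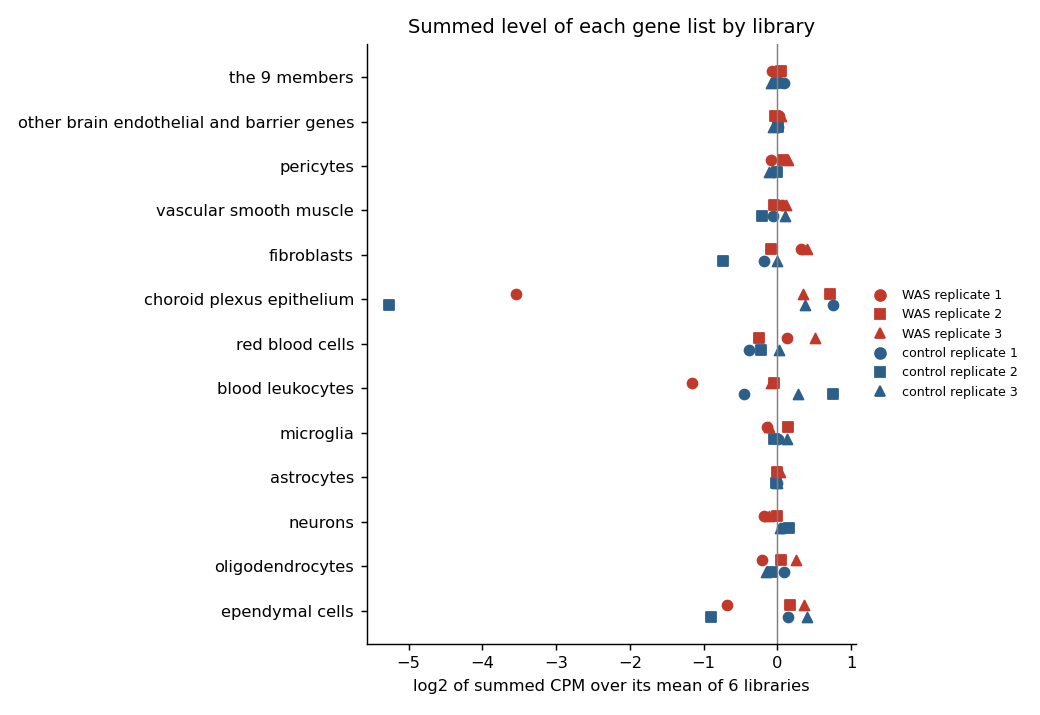
Summed CPM of each gene list in each library, as log2 of its ratio to the mean of the 6 libraries (x axis), with WAS libraries in red and control libraries in blue. The 9 members and the other endothelial genes stay near 0 in every library, while choroid plexus markers are far below it in WAS replicate 1 and control replicate 2.

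A wider list of 59 brain endothelial and barrier genes, all of which were tested, gave a sum of 1224 to 1297 CPM in WAS and 1198 to 1264 CPM in control. Values were above 0 on the log2 scale for 35 of these genes and below 0 for 24, and the median was 0.052. An unadjusted p under 0.05 was reached by 8 of 59, or 13.6%, beside 7.24% of all genes, with 5 higher and 3 lower in WAS. None of the 59 also met the fold change of 1.5 or had an adjusted p under 0.05 in edgeR's test. Groups did not overlap for 8 of the 59, 13.6% beside 12.2% of all genes. Slc3a2, the heavy chain of the large amino acid carrier, had the highest mean count of the list and a log2 fold change of 0.035 ± 0.090 (SE), but its transcript end shares sequence with many genes and its value is uncertain.

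Tjp1 encodes ZO-1, a scaffold protein that ties claudins to the actin skeleton in the junctions of many cell types. It was at 32.4, 37.7 and 35.4 CPM in WAS and 41.9, 44.4 and 40.7 CPM in control. The groups were fully apart, with Tjp1 lower in WAS. Its log2 fold change was -0.31 ± 0.10 (SE, adjusted p of 0.585 by edgeR), which is no call after adjustment. Without control replicate 2 the unadjusted p of Tjp1 was 0.0568 in edgeR's fit.

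Cd34, a sialomucin on the face of the endothelium toward the blood, had 88.2, 95.7 and 71.0 CPM in WAS and 123, 121 and 90.7 CPM in control. WAS replicate 2 lay above control replicate 3, and replicate 3 was the lowest library of each group. Its log2 fold change was -0.43 ± 0.13 (SE, unadjusted p of 0.00856 and adjusted p of 0.550 by edgeR), and the unadjusted p stayed under 0.05 with each library left out. The adjusted p was 0.0464 without WAS replicate 2, and over the 15 alternatives it ran from 0.0464 to 1.00. An antisense transcript, Gm16897, overlaps the end of Cd34.

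Slc7a1, the carrier of arginine and other cationic amino acids, had 44.8, 41.2 and 46.0 CPM in WAS and 56.3, 58.4 and 45.7 CPM in control. Control replicate 3 lay with the WAS libraries. Slc7a1 had a log2 fold change of -0.32 ± 0.11 (SE, adjusted p of 0.585 by edgeR), with an unadjusted p of 0.0572 without control replicate 1 and 0.0787 without control replicate 2. Klf4, a transcription factor that blood flow induces in endothelium and that other cells also express, was at 38.7, 23.0 and 38.7 CPM in WAS and 23.4, 23.2 and 23.7 CPM in control. WAS replicates 1 and 3 were high and WAS replicate 2 was at the control level. Klf4 had a log2 fold change of 0.48 ± 0.18 (SE, adjusted p of 0.625 by edgeR). It was 0.69 with an adjusted p of 0.00691 without WAS replicate 2, over a range of adjusted p from 0.00691 to 1.00 in the 15 alternatives, and the unadjusted p was above 0.05 when WAS replicate 1 (log2 fold change of 0.36), WAS replicate 3 (0.36), control replicate 1 (0.47) or control replicate 2 (0.47) was left out. Jam2, Lsr and Klf2, named after their values were seen, also had an unadjusted p under 0.05, with log2 fold changes of 0.36 ± 0.16, 0.38 ± 0.16 and 0.27 ± 0.12 (SE).

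**Figure D5:**
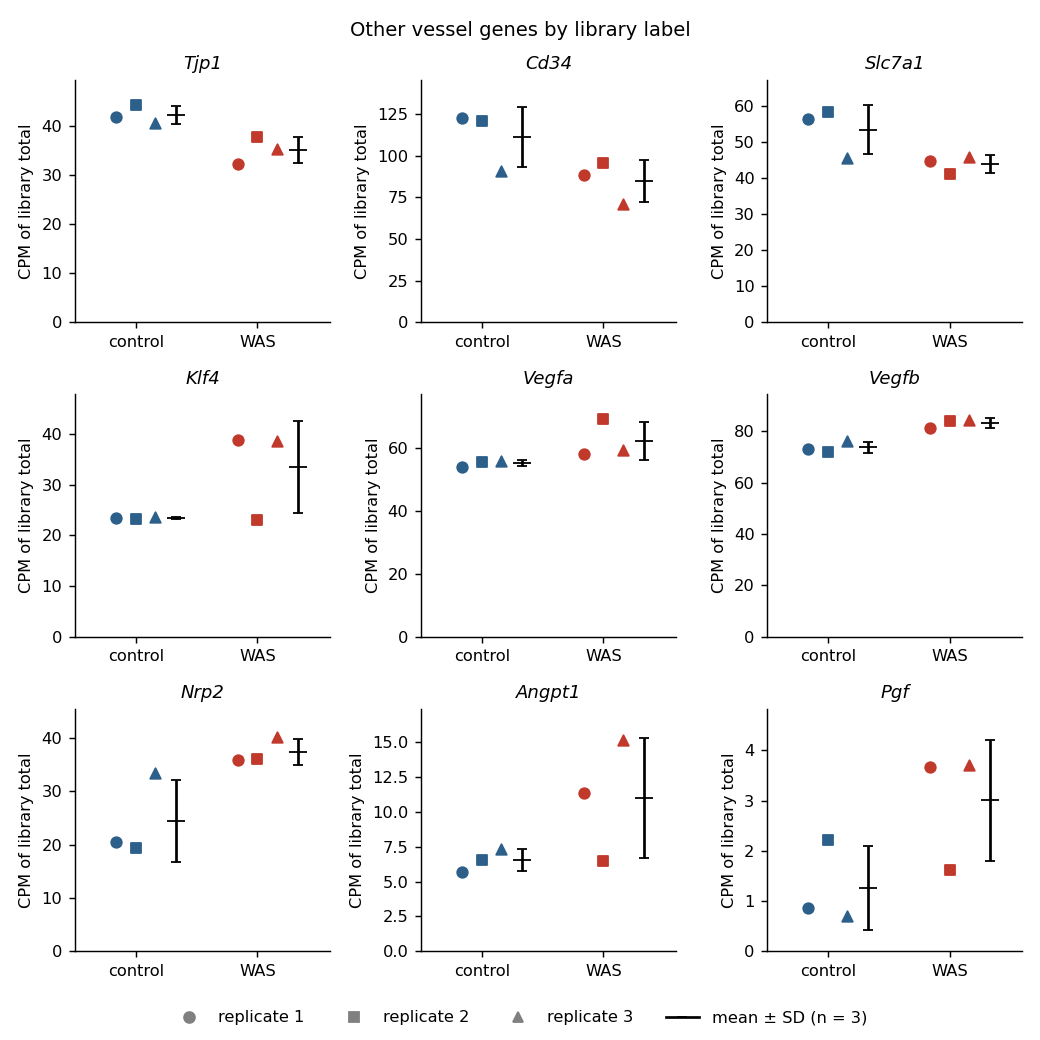
Level in CPM of the library total (y axes, from 0) of 9 further genes of vessels in the libraries labelled control and WAS, with 1 point per mouse and the mean ± SD (n = 3) in black. Groups are apart for Tjp1, Vegfa, Vegfb and Nrp2, and WAS replicate 2 lies at the control level for Klf4 and Angpt1 and inside the control range for Pgf.

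The ligands and partners of Flt1 and Tek were read as a list of 10 genes. The difference was above 0 for 8 of them and its median was 0.23 on the log2 scale, while 3 of 10 had an unadjusted p under 0.05, beside 7.24% of all genes, all higher in WAS. Pgf and Angpt1 also met the fold change of 1.5, 2 of 10 beside 2.49% of all genes, and 0 of 10 had an adjusted p under 0.05 in edgeR's test (lowest 0.581). Groups did not overlap for 3 of 10, Vegfa, Vegfb and Nrp2, beside 12.2% of all genes. All 3 were higher in WAS, and the whole table leaned the same way. Over all genes, 1283 with groups apart were higher in WAS and 573 lower, and 277 against 103 met the study's criteria. CPM scales only to the library total, and with that scaling the median log2 fold change over all genes was 0.038. The summed level of the 10 genes was 365, 318 and 388 CPM in WAS and 303, 293 and 307 CPM in control, and the groups did not overlap. Most of these genes are also expressed by cells other than endothelium.

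The 3 ligands of Flt1 had higher mean levels in WAS, and none passed adjustment. Vegfa, the main endothelial growth factor, was at 58.0, 69.3 and 59.4 CPM in WAS and 54.1, 55.7 and 56.0 CPM in control, a log2 fold change of 0.13 ± 0.099 (SE, adjusted p of 0.846 by edgeR), and of 0.050 without WAS replicate 2. Vegfb was at 81.1, 84.0 and 84.5 CPM in WAS and 73.2, 71.8 and 76.1 CPM in control, a log2 fold change of 0.14 ± 0.083 (SE). Both had groups that were fully apart, with unadjusted p of 0.204 and 0.125 in edgeR's fit. Pgf, placental growth factor, had 37, 15 and 37 reads in WAS and 9, 23 and 7 reads in control. WAS replicates 1 and 3 exceeded every control library, and WAS replicate 2 lay below control replicate 2. Its log2 fold change was 1.21 ± 0.51 (SE, adjusted p of 0.667 by edgeR). The unadjusted p rose above 0.05 when WAS replicate 1 or 3, or control replicate 1 or 3, was left out, with log2 fold changes of 0.94 to 1.04, whereas leaving out WAS replicate 2 gave 1.504, and leaving out control replicate 2 gave 1.90.

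The receptor Kdr, VEGF receptor 2, which carries most of the VEGF signal in endothelium, was at 10.7, 12.3 and 13.1 CPM in WAS and 9.71, 10.8 and 9.72 CPM in control (log2 fold change 0.22 ± 0.17, SE). Nrp1 and Nrp2, the neuropilins, bind VEGF and semaphorins on endothelial cells and neurons. Nrp2 was at 35.9, 36.1 and 40.2 CPM in WAS and 20.5, 19.5 and 33.4 CPM in control. Control replicate 3 was near the WAS libraries and the other controls were well below. Nrp2 had a log2 fold change of 0.58 ± 0.19 (SE, adjusted p of 0.581 by edgeR), just under the fold change of 1.5. It was 0.45 without control replicate 1, 0.44 without control replicate 2, both with an unadjusted p above 0.05, and 0.88 without control replicate 3. Nrp1 was at 117, 65.3 and 129 CPM in WAS and 93.7, 78.7 and 84.1 CPM in control, so WAS replicate 2 was the lowest library of all and the other WAS libraries were the highest. Its log2 fold change was 0.24 ± 0.20 (SE), and 0.49 with an adjusted p of 0.0143 by edgeR without WAS replicate 2. Leaving out WAS replicate 1 gave 0.14, and leaving out WAS replicate 3 gave 0.058. Over the 15 alternatives the adjusted p of Nrp1 ran from 0.0143 to 1.00.

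The angiopoietins are the ligands of Tek. Angpt1, its activating ligand, was at 11.3, 6.49 and 15.1 CPM in WAS and 5.71, 6.55 and 7.32 CPM in control. WAS replicates 1 and 3 were above every control, and WAS replicate 2 was at the control level. The log2 fold change was 0.72 ± 0.28 (SE, unadjusted p of 0.0275 and adjusted p of 0.632 by edgeR). Without WAS replicate 2 it was 0.98 with an adjusted p of 0.0285, and without WAS replicate 3 it was 0.41 with an adjusted p of 0.990; the unadjusted p also was above 0.05 with WAS replicate 1 (0.69), control replicate 1 (0.62) or control replicate 2 (0.72) left out. Over the 15 alternatives the adjusted p ran from 0.0285 to 1.00.

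Angpt2, which opposes Angpt1 in many settings, was at 0.695, 2.60 and 2.40 CPM in WAS and 1.90, 1.64 and 2.00 CPM in control, a log2 fold change of -0.0038 ± 0.48 (SE). Its end overlaps Mcph1 on the opposite strand. Tie1, the partner receptor of Tek, was at 5.56, 5.84 and 3.71 CPM in WAS and 4.48, 4.62 and 2.81 CPM in control (log2 fold change 0.30 ± 0.29, SE). Replicate 3 was the lowest library of both groups. For Tie1, leaving out WAS replicate 2 gave 0.19, leaving out WAS replicate 3 gave 0.48, and leaving out control replicate 3 gave 0.12. Ptprb encodes VE-PTP, the phosphatase that acts on Tek and VE-cadherin, and was at 40.5, 34.7 and 36.9 CPM in WAS and 38.8, 41.5 and 34.7 CPM in control (log2 fold change -0.074 ± 0.11, SE). The groups overlapped for all 3 genes.

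Wnt ligands from neural cells act through beta-catenin in endothelium to induce and keep the barrier. Of 14 genes of this pathway 13 were tested, of which 8 were higher on average in WAS and 0 had an unadjusted p under 0.05 by edgeR. Their summed level was 590, 585 and 618 CPM in WAS and 534, 536 and 534 CPM in control. The groups were apart, and most of the sum was Ctnnb1, the gene of beta-catenin, at 460, 461 and 486 CPM in WAS and 409, 415 and 416 CPM in control. Ctnnb1 is expressed in nearly every cell, and its log2 fold change was 0.14 ± 0.075 (SE, adjusted p of 0.727 by edgeR). The end of Ctnnb1 overlaps Ulk4 on the opposite strand. Lrp6, a Wnt co-receptor, had a log2 fold change of -0.048 ± 0.11 (SE).

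Another list held genes that inflamed or leaky endothelium induces. Of 7 such genes 4 were tested, all of them higher on average in WAS and 0 with an unadjusted p under 0.05 by edgeR. The adhesion molecule Vcam1 was at 32.7, 25.7 and 30.05 CPM in WAS and 27.4, 21.4 and 30.4 CPM in control, a log2 fold change of 0.12 ± 0.15 (SE). Ackr1, the chemokine receptor of venules and red cells, was at 45.3, 51.1 and 51.2 CPM in WAS and 44.4, 54.0 and 41.2 CPM in control, a log2 fold change of 0.043 ± 0.12 (SE). Sele, E-selectin, had 0 reads in all 6 libraries, which allows up to 3 reads in each. The 7 genes summed to 87.3 to 92.0 CPM in WAS and 80.0 to 84.7 CPM in control, which did not overlap. With scaling to the library total alone, as in CPM, the median log2 fold change over all genes was 0.038.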

How the data were processed

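The labels describe 6 libraries of mouse brain RNA, 3 per group, each a separate biological replicate. The authors aligned 75-base single-end QuantSeq reads with Bowtie2 and counted each gene's alignments with Bedtools, multiple ones included, and deposited these as raw read counts. The labels name mm10. The annotation is not given in the sources used here. Quantile normalization by the authors is not in the deposited counts. A gene was tested if its mean log2(quantile-normalized count + 1) was at least 2. Another 44 entries repeat a symbol and stayed separate.

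Counts were scaled with TMM (factors 0.976 to 1.01) and compared by quasi-likelihood in edgeR 4.0.16 (R 4.3.3), with Benjamini-Hochberg adjustment over 15239 genes. Intervals are the log2 fold change with the t quantile times its SE at 95%. The common biological coefficient of variation was 14.0%. The scripts were tested on simulated data. Alternatives used DESeq2 1.42.0, limma 3.58.1, other scalings and filters, the replicate block and libraries left out. Leaving out WAS replicate 1 with control replicate 2 was chosen after seeing the data. The ribosomal entry Rn45s held 4.96 to 7.32% of the counts.

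The members and gene lists were chosen with earlier results of these data known. Named were the 9 members, the ligand and paralog lists in full, from the other 3 vessel lists the 2 genes with the highest mean count and up to 5 with the smallest p under 0.05, leading markers by level, and the 5 genes most like the members over 6 libraries. Gene positions and shared ends came from GENCODE M21 transcripts (mm10) and promoters from RefSeq GRCm38.p6. The metabolite data were not analysed here, and 1 gene that the rule names is not reported here.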

Additional observations from a re-analysis of the deposited data

How the results depend on the processing

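In 15 alternatives, 0 of the 9 members met the study's criteria or an adjusted p of 0.05. Pecam1, Flt1 and Cdh5 kept their direction in all 15, and 6 members did not. With each library left out, the log2 fold change ranged from -0.019 to 0.45 for Cldn5, -0.30 to -0.12 for Flt1, 0.11 to 0.45 for Cdh5, -0.34 to -0.016 for Pecam1, -0.014 to 0.19 for Slco1a4, -0.016 to 0.46 for Tek (its lower end without both WAS replicate 1 and control replicate 2), -0.065 to 0.12 for Abcb1a, -0.17 to 0.035 for Ly6c1 and -0.099 to 0.0068 for Slc2a1. The same ranges were -0.029 to 0.093 for Slc3a2, -0.29 to 0.39 for Angpt2, -0.14 to -0.011 for Ptprb, 0.32 to 0.77 for Ly6c2, -0.10 to 0.015 for Lrp6, -0.030 to 0.17 for Ackr1, -0.0060 to 0.25 for Vcam1, -0.073 to 0.24 for Abcb1b, -1.49 to 0.55 for Slco1a1 and -0.36 to 0.21 for Slco1a5. The values at which directions turned were -0.0065 for Slco1a4 and -0.042 for Abcb1a without WAS replicate 3, 0.016 for Ly6c1 without control replicate 2, -0.024 for Abcb1b without WAS replicate 3, 0.0088 and 0.066 for Angpt2 without control replicates 1 and 3, and 0.096, 0.13 and 0.075 for Slco1a5 without WAS replicate 1, WAS replicate 2 and control replicate 2. Without both WAS replicate 1 and control replicate 2 the value was 0.031 for Ly6c1, 0.027 for Slc2a1, -0.016 for Tek, 0.31 for Angpt2, -0.091 for Vcam1, 0.49 for Slco1a1, 0.20 for Slco1a5 0.22 for Ackr1, 0.27 for Abcb1b and, for Flt1, -0.38 with a lower p. Total-count scaling turned Angpt2 to 0.033 and Slco1a5 to 0.0095 and moved the median of all genes to 0.038. Scaling on endothelial genes turned Angpt2 to 0.0075. By limma, the unadjusted p was above 0.05 for Cd34 (0.0583), Klf4 (0.103), Pgf (0.0718) and Angpt1 (0.108). The causes were not tested.

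The number of members with an unadjusted p under 0.05 was 0 to 1 with each library left out and 1 without WAS replicate 1 and control replicate 2. Of the 59 endothelial genes, 5 passed by DESeq2, 5 by limma, 2 without that pair of libraries and 2 to 8 with each library left out. Their number at the study's criteria was 0 to 1 with each library left out and 1 without the pair, and their number at an adjusted p of 0.05 was 0 to 2. Of the 10 ligands and partners, 1 passed an unadjusted p of 0.05 by limma, 1 without the pair and 0 to 4 with each library left out. At the study's criteria it was 1 by limma, 1 without the pair and 0 to 3 with each library left out, and at an adjusted p 0 to 2. Of the Wnt genes, 1 passed an unadjusted p with total-count scaling and 0 to 1 with each library left out, at the study's criteria 0 to 1. Adjusted calls over all genes were 0 in edgeR's fit, 22 by DESeq2 and 484 without WAS replicate 2.

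Deviations of libraries with the same number had correlations of 0.088, 0.11 and 0.10, not all above 0.1, so the numbers were not used as pairs. Yet each library correlated best with its own number, and all correlations between different numbers were below 0, from -0.099 to -0.0070. In edgeR with the replicate block, the unadjusted p fell to 0.00033 for Cd34 and 0.0012 for Nrp2 and rose to 0.0475 for Pgf. Their adjusted p were 0.076, 0.14 and 0.52. With the replicate block, 1428 genes in place of 1104 had an unadjusted p under 0.05, 49 had an adjusted p under 0.05, and Flt1 had a log2 fold change of -0.20 and an adjusted p of 0.657 by edgeR. Changes past 1.5-fold lay inside the intervals of Cldn5, Cdh5, Tek and Pecam1.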
